A study of Mus musculus with 7 samples.

Results

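The granule products of Paneth cells (PCs) other than defensins were followed through 10 genes, listed by symbol: Lyz1, Lyz2, Ang4, Itln1, Mptx1, Mptx2, Mmp7, Pla2g2a, Clps and Habp2. Each symbol was matched to 1 Ensembl identifier, so these were 10 of the 55414 identifiers in the count table, and all 10 passed the filter on low counts that left 14329 genes for testing. The counts came from bulk RNA-seq of purified PCs of the small intestine of C57BL/6J mice, collected with a cell sorter 15 h after injection of either phosphate-buffered saline (PBS, 3 mice) or tumour necrosis factor (TNF, 4 mice), with 1 mouse for each library. No genetic change is given for any mouse, so the PBS and TNF groups differed, as far as the labels say, only in what was injected. Dose, sex, age, gut segment and sort markers were not given in the sources used here. In bulk libraries, fewer cells that express a gene and less RNA of it per cell cannot be told apart.

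PCs sit at the base of the crypts next to the stem cells and release granules into the crypt lumen. Beside alpha-defensins, these granules carry enzymes that attack bacterial walls and membranes, lectins and pentraxins that bind microbial surfaces, and a metalloproteinase that activates defensin precursors. Lysozyme is the classical marker of the granules, while colipase and Habp2 are better known from the pancreas and from blood plasma.

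Both pairs of close paralogues among the granule genes are shown first, because the paralogues differed greatly in level and their reads are told apart only where their sequences differ. Lyz1 and Lyz2 lie side by side on the minus strand of chromosome 10, and their coding sequences of 447 bases differed at 22 positions (95.1% identity), with the longest identical run at 118 bases. The next lines give coding positions 61 to 120 of exon 1 from GRCm39, at chr10:117128624-117128683 for Lyz1 and chr10:117118028-117118087 for Lyz2, with the 9 differing bases in capitals.
Lyz1: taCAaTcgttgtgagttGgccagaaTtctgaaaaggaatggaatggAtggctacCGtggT
Lyz2: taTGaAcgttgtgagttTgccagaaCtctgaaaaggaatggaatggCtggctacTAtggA
The 250 bases upstream of each annotated start, taken from RefSeq on GRCm38.p6, are shown for both pairs because each pair holds a gene of high and a gene of low level; capitals mark bases that differ from the paralogue or face a gap within the alignment, and bases beyond the end of the aligned stretch are in lower case although they were not compared (the first base of Lyz2, the first 15 bases of Mptx1 and the last 21 of Mptx2). For the lysozymes these are chr10:117292869-117293118 (minus strand) and chr10:117282273-117282522 (minus strand). They aligned over 251 columns with 200 identical, 48 mismatched and 3 gapped (79.7% identity). The 50 columns nearest the start were identical (100%), against 107 of the 150 farthest (71.3%).
Lyz1: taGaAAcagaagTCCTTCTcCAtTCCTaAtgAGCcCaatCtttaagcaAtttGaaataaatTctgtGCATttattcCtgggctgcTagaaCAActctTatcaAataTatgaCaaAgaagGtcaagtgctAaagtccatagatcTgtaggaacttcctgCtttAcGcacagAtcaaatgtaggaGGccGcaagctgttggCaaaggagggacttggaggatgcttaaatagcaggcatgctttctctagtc
Lyz2: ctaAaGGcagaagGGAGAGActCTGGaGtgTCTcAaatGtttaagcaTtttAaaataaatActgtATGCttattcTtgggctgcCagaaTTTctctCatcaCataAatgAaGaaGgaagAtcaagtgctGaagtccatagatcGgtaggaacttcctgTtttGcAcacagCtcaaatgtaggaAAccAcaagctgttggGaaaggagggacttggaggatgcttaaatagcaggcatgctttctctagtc
For the pentraxins the windows are chr1:174330268-174330517 (plus strand) and chr1:173277757-173278006 (minus strand). They aligned over 236 columns with 197 identical, 31 mismatched and 8 gapped (83.5% identity), and 44 of the last 50 aligned columns were identical (88%), which end at the annotated start of Mptx1 but 21 bases before that of Mptx2.
Mptx1: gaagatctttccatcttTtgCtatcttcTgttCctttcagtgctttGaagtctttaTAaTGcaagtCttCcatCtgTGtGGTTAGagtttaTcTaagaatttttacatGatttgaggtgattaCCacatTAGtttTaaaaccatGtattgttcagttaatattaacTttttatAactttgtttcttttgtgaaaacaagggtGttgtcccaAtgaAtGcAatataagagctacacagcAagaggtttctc
Mptx2: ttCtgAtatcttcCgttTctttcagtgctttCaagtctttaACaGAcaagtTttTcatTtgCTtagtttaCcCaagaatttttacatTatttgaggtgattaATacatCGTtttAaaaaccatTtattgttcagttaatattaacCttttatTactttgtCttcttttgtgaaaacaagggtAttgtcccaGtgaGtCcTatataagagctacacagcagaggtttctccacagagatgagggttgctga
In sequence windows of 75 bases, 78 of 1417 windows of Lyz1 transcripts (5.5%) and 392 of 3540 of Lyz2 (11.07%) also occurred in other genes. For Lyz1, 74 of these lay in Lyz2, and for Lyz2, 325 lay in an antisense gene, Gm67237. Mptx1 and Mptx2 had 73 windows in common (10.07% and 10.14% of their windows). Ang4 had 11.43% of its windows in other genes, mainly the antisense gene Gm63604, while Mmp7 had 4.3% and Habp2 had 4.25% in genes on the opposite strand. Itln1, Pla2g2a and Clps had none. Gm67237 and Gm63604 are in the later annotation used here but not among the identifiers of the count table. How reads with several matches and reads from the opposite strand were counted is unknown here, which leaves the low counts of Lyz2 and Mptx1 uncertain.

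The libraries held between 15511455 and 19193721 counts. The 45 alpha-defensin genes in the table took 12.5% to 19.24% of all counts after PBS and 9.93% to 15.7% after TNF, and together with Lyz1 they show the PC character of every library. Of 12 leukocyte markers, 4 had no counts in any library and 1 was tested, Ptprc, the pan-leukocyte CD45 gene, at 11.4, 26.2 and 11.6 CPM (counts per 1e+06, scaled by TMM) after PBS and 7.28, 6.25, 12.7 and 7.72 CPM after TNF, which overlapped. Genes of other cell types are described with the granule genes that they could bear on. Of the 14329 genes tested, 59.6% were called different between TNF and PBS at an adjusted p below 0.05 in the quasi-likelihood test of edgeR, 29.5% as higher and 30.1% as lower after TNF.

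The granule genes took 14.1% to 17.0% of all counts after PBS (mean 15.2% ± 1.55, SD, n = 3) and 12.8% to 17.6% after TNF (14.9% ± 2.07, SD, n = 4), so their total overlapped between the groups. Their levels were set side by side per length of exon, as RPKM (reads per kilobase of exon and per 1e+06 reads) on TMM-scaled library sizes. After PBS, the level ran from 75817 ± 14074 RPKM for Lyz1 (SD, n = 3, as for all PBS values) through 22984 ± 8216 for Itln1, 7222 ± 2949 for Mptx2 and 3543 ± 775 for Ang4. Mmp7 followed with 3181 ± 602 RPKM, Clps with 1683 ± 766, Pla2g2a with 478 ± 178 and Habp2 with 151 ± 30.1. Mptx1 and Lyz2 were lowest, at 8.60 ± 4.54 and 2.92 ± 1.21 RPKM. Every neighbouring pair kept this order in 3 of 3 PBS libraries except Ang4 and Mmp7, whose order held in 2 of 3 and whose ranges overlapped. Within each pair of paralogues, 1 gene thus stood among the highest levels of the set and the other at its bottom.

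In the comparison of TNF with PBS, 5 of the 10 granule genes were called different, a share close to the 59.6% of all genes tested. Of these, 2 were higher (background 29.5%) and 3 lower (background 30.1%), and 5 were not called. The groups of libraries did not overlap in 4 of 10 genes, against 60.7% of all genes tested. The median log2 fold change was -0.35 over the granule genes and 0.0017 over all genes tested, where the median absolute change was 0.70. The granule genes therefore moved in different directions.

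**Figure D1:**
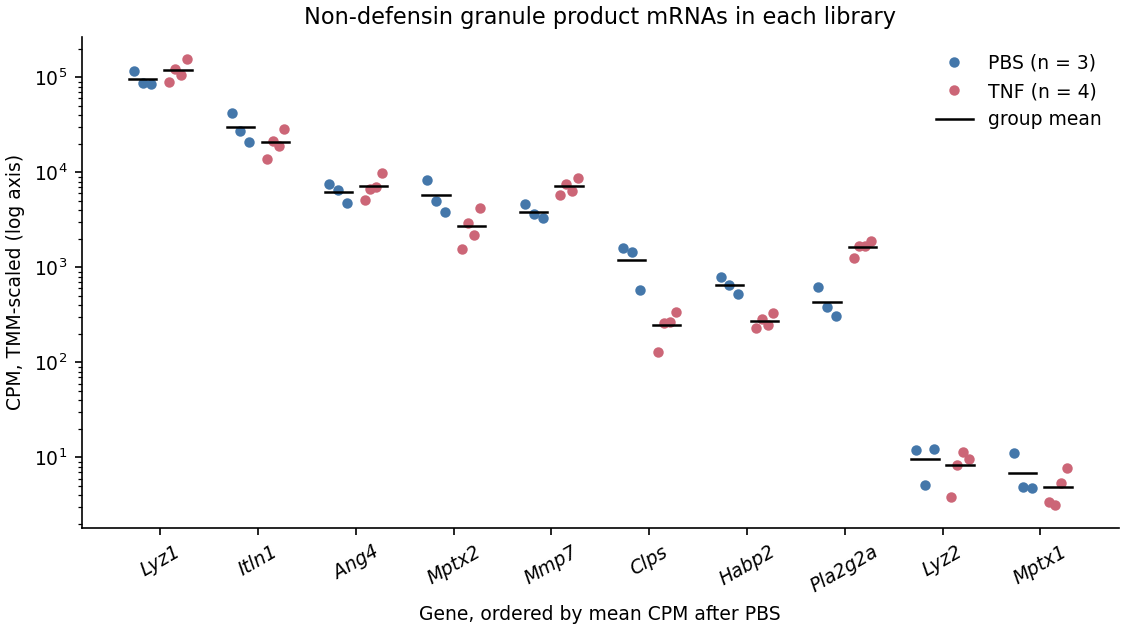
Level of each granule gene in every library, in counts per 1e+06 on TMM-scaled library sizes (CPM), on a log axis; points are single mice and bars mark group means (3 PBS, 4 TNF). Pla2g2a and Mmp7 are higher and Clps and Habp2 lower in all TNF libraries than in any PBS library, while the groups overlap in the other 6 genes.

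**Figure D2:**
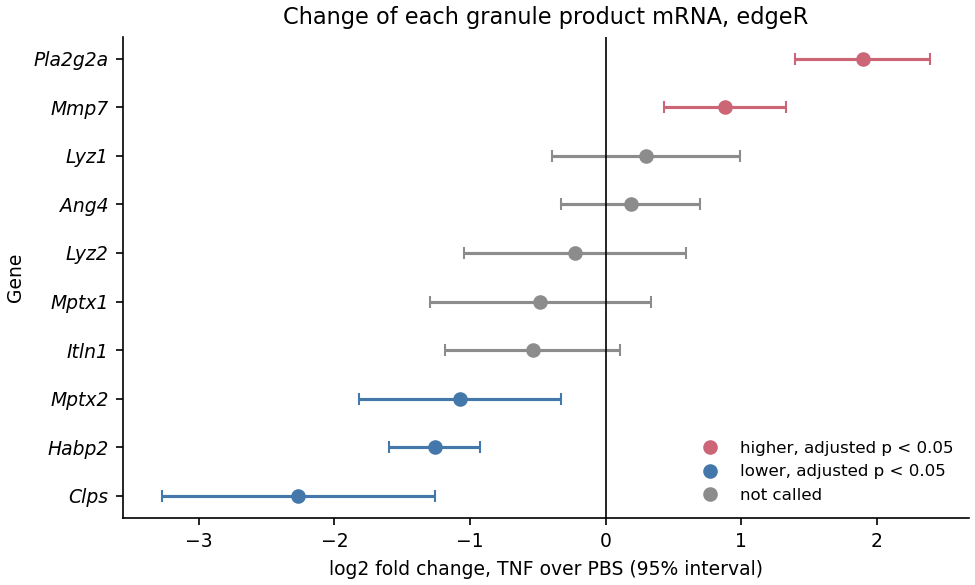
Log2 fold change of each granule gene, TNF over PBS, from the edgeR fit over all tested genes; points are estimates, bars their 95% intervals, and colour marks the call. Values run from -2.27 for Clps to 1.90 for Pla2g2a, and the intervals of Lyz1, Lyz2, Ang4, Itln1 and Mptx1 include 0.

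Among the enzymes that act on bacteria, Pla2g2a had the largest rise. It encodes a secreted phospholipase A2 that hydrolyses bacterial membrane lipids, and C57BL/6 mice are known to carry a frameshift allele of it. The gene (ENSMUSG00000058908) lies on the plus strand of chromosome 4 at 138559171-138562497 (GRCm39, as for all genes below), where the GENCODE M39 annotation holds a transcript of 788 bases typed as a loss-of-function coding transcript and one of 462 bases without a defined coding sequence. RefSeq types the gene as a transcribed pseudogene. Its level was 619, 386 and 306 CPM in the PBS libraries and 1267, 1682, 1659 and 1898 CPM in the TNF libraries. All TNF libraries were thus above all PBS libraries. The means were 437 ± 163 CPM (n = 3) after PBS and 1626 ± 263 CPM (n = 4) after TNF, with errors as SD here and below. The log2 fold change was 1.90 ± 0.23 (SE), a 3.72-fold rise (95% CI 2.63 to 5.26; edgeR adjusted p = 1.38e-05). The rise concerns the RNA, and protein was not measured. Pla2g2a ranked 846 from the top of 14329 genes by fold change.

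Other secreted phospholipases A2 were counted beside it. Of 8 listed, 6 were tested, 4 were higher and 2 were not called. Pla2g5, which lies on the opposite strand at the same locus without shared exon bases, was at 16.6, 14.5 and 18.0 CPM after PBS and at 61.0, 67.7, 72.0 and 66.2 CPM after TNF (log2 fold change 2.03 ± 0.12, edgeR adjusted p = 1.01e-08). Pla2g12b, a secreted phospholipase-like protein, went from 2.64 ± 0.573 to 13.3 ± 1.73 CPM (2.33 ± 0.22, edgeR adjusted p = 9.44e-07). Pla2g2f went from 345 ± 65.8 to 694 ± 91.8 CPM (1.01 ± 0.15, edgeR adjusted p = 5.25e-05), and Pla2g2d went from 12 counts in all PBS libraries to 337 in all TNF libraries (4.43 ± 0.45). Both of these, like all relatives of the granule genes below except Plat, were picked for the text after their values were seen. Pla2g12a and Pla2g10 were not called, with log2 fold changes of -0.31 and -0.69 (adjusted p = 0.0661 and 0.0751).

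Mmp7 encodes matrilysin, the matrix metalloproteinase that cleaves alpha-defensin precursors into active peptides in mouse PCs. It lies on the plus strand of chromosome 9 at 7692091-7699587 (ENSMUSG00000018623). It was at 4685, 3610.5 and 3289 CPM after PBS and at 5802, 7597, 6333 and 8721 CPM after TNF. All TNF libraries were above all PBS libraries. The mean rose from 3862 ± 731 to 7113 ± 1310 CPM, 1.84-fold (95% CI 1.35 to 2.51; edgeR adjusted p = 0.00223). The share of counts held by its substrates, the alpha-defensins, overlapped between the groups. Of 7 other matrix metalloproteinases listed, 3 were tested. Mmp15 (log2 fold change 0.76, adjusted p = 0.000599) and Mmp28 (0.76, 0.00199) rose and Mmp14 fell (-0.52, 0.00266), all by edgeR.

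Lysozymes cut the peptidoglycan of bacterial walls. Lyz1, the PC lysozyme (ENSMUSG00000069515, chromosome 10, 117123698-117128775, minus strand), took 9.32% to 10.9% of all counts after PBS and 9.78% to 13.1% after TNF. Its level was 117168, 87228 and 85149 CPM after PBS and 90261, 123639, 105477 and 155547 CPM after TNF. The highest PBS library exceeded 2 of the 4 TNF libraries. The fold change of 1.23 had a 95% CI of 0.76 to 1.99, so a fall and a rise both lay within the interval.
Lyz2, the lysozyme known from macrophages and neutrophils (ENSMUSG00000069516, chromosome 10, 117111557-117118346, minus strand), had only 192, 100 and 230 counts in the PBS and 68, 141, 213 and 147 counts in the TNF libraries. In CPM these were 11.9, 5.09 and 12.2 against 3.81, 8.31, 11.4 and 9.62, and the groups overlapped. The log2 fold change was -0.23 ± 0.37 (95% CI -1.04 to 0.59; edgeR adjusted p = 0.621). Per 1000 Lyz1 counts there were 0.0584 to 0.143 Lyz2 counts after PBS and 0.0422 to 0.108 after TNF. Of 16 macrophage and neutrophil markers, 5 had no counts in any library (C1qc, Marco, Csf3r, Mpo and Elane) and 7 were tested. Of these, 4 were higher (Cd14, Mrc1, Ly6g and S100a9) and 1 was lower (C1qa). Summed over all PBS and all TNF libraries, counts went from 0 to 233 for Ly6g, from 0 to 399 for S100a9 and from 132 to 27 for C1qa. These 3 were picked after their values were seen. The summed level of the list was 8.47 to 11.0 CPM after PBS and 45.4 to 49.0 CPM after TNF. Cd14, the lipopolysaccharide co-receptor, was the 1 marker named by rule (mean of 4.22 CPM after PBS and 30.2 CPM after TNF, log2 fold change 2.83 ± 0.16, edgeR adjusted p = 8.59e-09). The summed level of this list thus did not overlap between the groups, whereas that of Lyz2 did, and their part in the Lyz2 result was not tested.

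Ang4, a secreted ribonuclease with bactericidal activity (ENSMUSG00000060615, chromosome 14, 51990721-52011053, minus strand), was at 7486, 6501 and 4781 CPM after PBS and at 5057, 6623, 7051 and 9725 CPM after TNF. The groups overlapped, and PBS 3 and TNF 1 were the lowest of their groups. The fitted change of 0.19 ± 0.24 (log2) corresponds to a 95% CI of 0.80-fold to 1.62-fold (edgeR adjusted p = 0.524). Of 6 related ribonucleases listed, 3 were tested and 3 had no counts. Rnase4, a neighbour of the angiogenin genes, rose from 432 ± 85.6 to 906 ± 237 CPM (1.07 ± 0.20, edgeR adjusted p = 0.000454), while Rnase1 (0.17, adjusted p = 0.623) and Ang (0.01, adjusted p = 0.985) were not called.

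The lectin and the pentraxins that bind microbial surfaces had negative fold changes, of which only that of Mptx2 passed the test. Mptx2 encodes mucosal pentraxin 2, a PC product (ENSMUSG00000079180, chromosome 1, 173101949-173105344, minus strand). It was at 8351, 5019 and 3834 CPM after PBS and at 1552, 2942, 2202 and 4193 CPM after TNF. PBS 1 stood far above the other PBS libraries, and TNF 4 was higher than PBS 3. The mean was 5735 ± 2342 CPM after PBS and 2722 ± 1133 CPM after TNF, a 2.11-fold fall (95% CI 1.26 to 3.52; log2 -1.07 ± 0.34; edgeR adjusted p = 0.0169). Without PBS replicate 1 the log2 fold change was -0.70 and was not called (edgeR adjusted p = 0.101), and with no filter for low counts it was -1.08 (0.141).
Mptx1, its paralogue (ENSMUSG00000026531, chromosome 1, 174158084-174160439, plus strand), had 179, 95 and 89 counts after PBS and 61, 53, 101 and 118 after TNF. These were 11.1, 4.84 and 4.72 CPM against 3.41, 3.12, 5.41 and 7.72 CPM, and the groups overlapped (log2 fold change -0.48 ± 0.37, 95% CI -1.29 to 0.33; edgeR adjusted p = 0.289). Per 1000 Mptx2 counts there were 0.964 to 1.32 Mptx1 counts after PBS and 1.06 to 2.46 after TNF, again overlapping.

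Itln1, intelectin 1, a lectin for microbial glycans that PCs and goblet cells secrete (ENSMUSG00000038209, chromosome 1, 171345690-171368943, minus strand), was at 41638, 27220.4 and 20780.2 CPM after PBS and at 13897, 21272, 19027 and 28245 CPM after TNF. Only PBS 1 was above all TNF libraries. The log2 fold change of -0.54 ± 0.30 was not called (95% CI -1.18 to 0.11; edgeR adjusted p = 0.1396). The call depended on the processing: it was made with scaling by total counts only (-0.69, edgeR adjusted p = 0.00264), with no filter for low counts (-0.54, 0.00251) and without PBS replicate 3 (-0.74, 0.0388). As a share of all counts, Itln1 was at 2.53% to 3.87% after PBS and 1.51% to 2.38% after TNF, without overlap. Goblet cell markers were counted beside it. Of 10, all tested, 5 were lower and 1 was higher, beside 30.1% and 29.5% of all genes tested. The median log2 fold change of the list was -1.11. Its summed level was 11637 to 21269 CPM after PBS and 9763 to 11205 CPM after TNF. The markers named by rule were Fcgbp (-5.62), Zg16 (-4.59) and Clca1 (-2.86), and no marker of the list was without counts. Fcgbp went from 2892 ± 1375 to 58.9 ± 18.8 CPM, whereas Muc2, the main goblet cell mucin, was at 5366.5 ± 1795 CPM after PBS and 5870.1 ± 318 CPM after TNF and was not called (0.13, edgeR adjusted p = 0.637). Spink4 (-0.45), Agr2 (-0.42) and Retnlb (-0.35) were not called either, and Ccl9 rose (0.99, edgeR adjusted p = 0.0108); these and Muc2 were picked after their values were seen. The part of these markers in the result of Itln1 was not tested.

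Clps and Habp2 fell without overlap between the groups. Clps encodes colipase, the cofactor of pancreatic lipase (ENSMUSG00000024225, chromosome 17, 28777123-28787857, minus strand). It was at 1598, 1439 and 579 CPM after PBS and at 130, 260, 268 and 343 CPM after TNF. All TNF libraries were below all PBS libraries, although PBS 3 held well under the level of PBS 1 and PBS 2. The mean fell from 1205 ± 548 to 250.4 ± 88.6 CPM, 4.81-fold (95% CI 2.40 to 9.68; log2 -2.27 ± 0.43; edgeR adjusted p = 0.00263). Defining genes of the exocrine pancreas were at or near 0: of 15 exocrine pancreas markers, 10 had no counts in any library, among them Pnlip, Cel, Cpa1 and Prss1, and the summed level of the list was 4.56 to 6.46 CPM after PBS and 7.19 to 8.996 CPM after TNF. Of its 3 tested genes 1 was higher and none lower.
Lipases were counted beside colipase. Of 5 listed lipases and colipase-like genes, 2 were tested and both fell. Pnliprp2, a pancreatic lipase-related protein, was at 2500, 2217 and 2049 CPM after PBS and at 738, 892, 826 and 976 CPM after TNF (log2 fold change -1.39 ± 0.14, edgeR adjusted p = 1.75e-06). Pnliprp1 went from 34.6 ± 5.33 to 10.5 ± 1.38 CPM (-1.72 ± 0.15, edgeR adjusted p = 4.25e-07). Neither overlapped between the groups.

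Habp2 encodes hyaluronan-binding protein 2, a secreted serine protease known as factor VII-activating protease (ENSMUSG00000025075, chromosome 19, 56275569-56309254, plus strand). It was at 790, 654 and 528 CPM after PBS and at 229, 285, 250.4 and 333 CPM after TNF. All TNF libraries were below all PBS libraries. The mean fell from 657 ± 131 to 274 ± 45.5 CPM, 2.40-fold (95% CI 1.90 to 3.02; log2 -1.26 ± 0.16; edgeR adjusted p = 1.02e-05). Among 4 related proteases, 2 were tested and they went in opposite directions. Hgfac, the activator of hepatocyte growth factor, fell from 169 ± 40.0 to 63.5 ± 7.44 CPM (-1.41 ± 0.15, edgeR adjusted p = 2.16e-06), while Plat, tissue plasminogen activator, went from 5 counts in all PBS libraries to 1421 in all TNF libraries (7.70 ± 0.49, edgeR adjusted p = 3.92e-08).

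**Figure D3:**
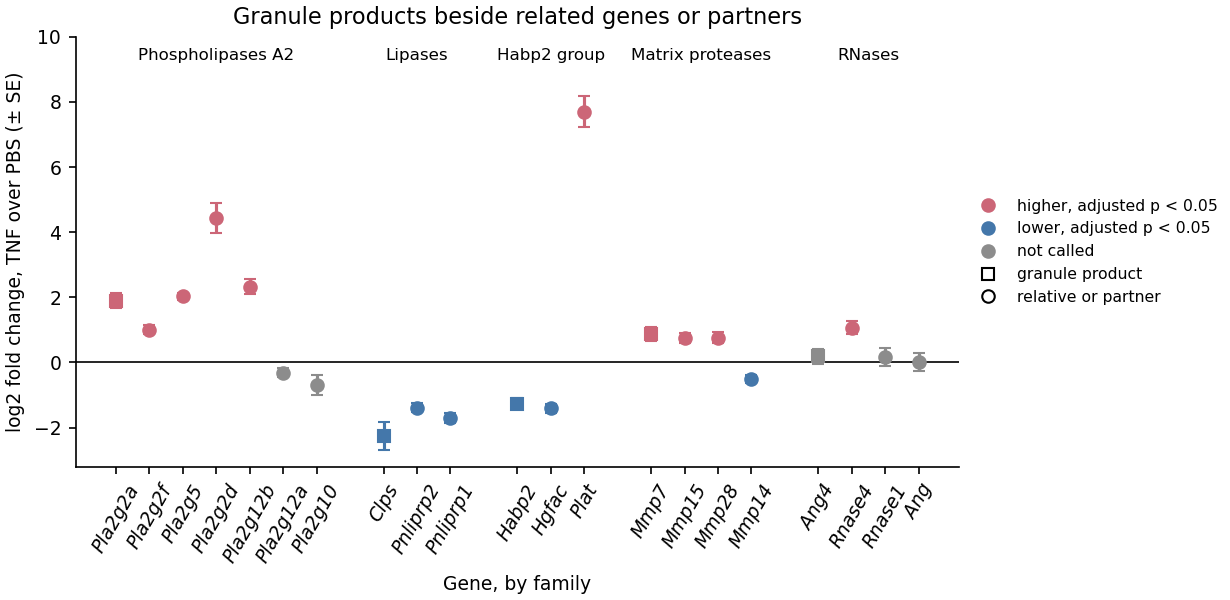
Log2 fold change (± SE) of 5 granule genes beside tested relatives or partners, grouped by family, with the edgeR call as colour. The lipases are all lower, the phospholipases A2 are higher or not called, and the Habp2 group holds both Hgfac (-1.41) and Plat (7.70).

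Over all relatives and partners of the granule genes, 39 were listed, 16 were tested, 8 were higher, 4 lower and 4 not called, with a median log2 fold change of 0.46. None of the 3 pentraxins (Crp, Apcs and Ptx3) or the 5 lysozyme-like genes listed passed the filter.

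The make-up of the granule RNA was compared within each library. Ratios among the granule genes do not depend on scaling between libraries, whereas shares of all counts amount to scaling by total counts. Lyz1 made up 64.3% to 71.4% of the counts of the 10 genes after PBS and 74.1% to 76.4% after TNF, without overlap. Without Lyz1, the other 9 genes together took 4.15% to 6.06% of all counts after PBS (mean 5.0% ± 0.975) and 3.03% to 4.50% after TNF (3.72% ± 0.608), which overlapped. Per 1000 Lyz1 counts, Itln1 had 355, 312 and 244 counts after PBS and 154, 172, 180.4 and 182 after TNF. The ratio was thus lower in every TNF library than in any PBS library (304 ± 56.1 after PBS, 172 ± 12.7 after TNF). Mptx2 had 71.3, 57.5 and 45 counts per 1000 Lyz1 counts after PBS and 17.2, 23.8, 20.9 and 27.0 after TNF, again without overlap. Mmp7 had 40.0, 41.4 and 38.6 after PBS and 64.3, 61.4, 60 and 56.1 after TNF. Pla2g2a had 3.59 to 5.28 after PBS and 12.2 to 15.7 after TNF, Clps 6.8 to 16.5 and 1.44 to 2.54, and Habp2 6.20 to 7.5 and 2.14 to 2.53, none of them overlapping. Ang4 had overlapping ratios, with 56.2 to 74.5 after PBS and 53.6 to 66.9 after TNF. Mptx1, at low counts, had 0.0554 to 0.0944 after PBS and 0.0253 to 0.0513 after TNF, without overlap, while the ratios of Lyz2, given above, overlapped. The ratios of Itln1, Mptx2 and Mptx1 to Lyz1 thus did not overlap between the groups although their CPM did. Lyz1 itself had a log2 fold change of 0.30 that was not called, and this enters every ratio. The share of all genes whose ratio to Lyz1 does not overlap was not counted.

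**Figure D4:**
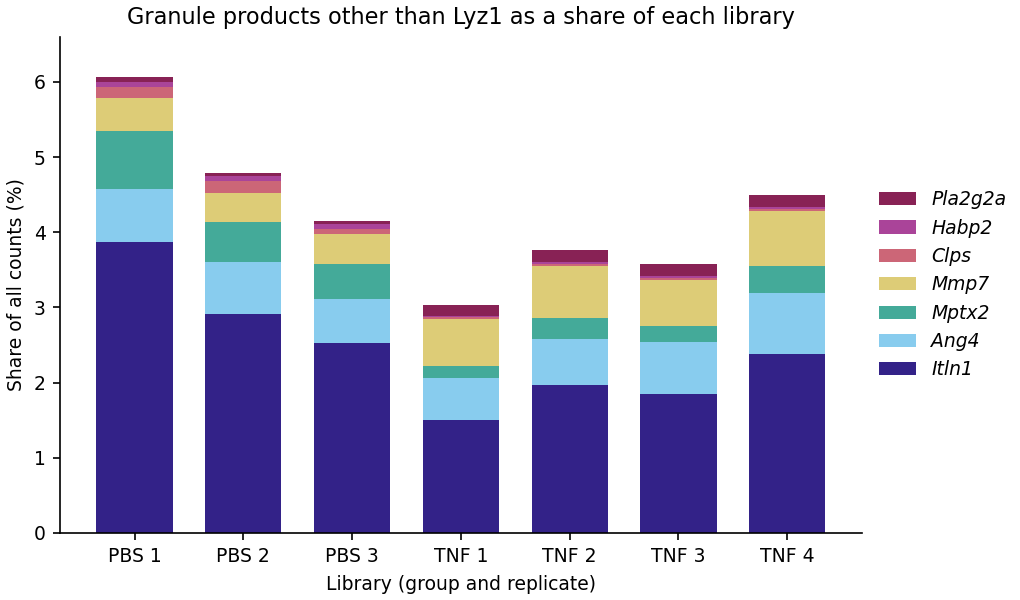
Stacked share of all counts in each library, in percent, of 7 granule genes other than Lyz1; Lyz2 and Mptx1 are too low to be seen at this scale and are left out. The stacks reach 4.15% to 6.06% after PBS and 3.03% to 4.50% after TNF, with Itln1 as the widest part in every library. All TNF libraries hold more of Mmp7 and Pla2g2a and less of Itln1, Clps, Habp2 and Mptx2 than any PBS library.

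After TNF, the order of levels per length changed below the 2 leading genes. Lyz1 was at 93269 ± 22060 RPKM (SD, n = 4, as for all TNF values), Itln1 at 15854 ± 4579, Mmp7 at 5859 ± 1079 and Ang4 at 4028 ± 1099. Mptx2 followed with 3429 ± 1427, Pla2g2a with 1778 ± 287, Clps with 349.7 ± 124 and Habp2 with 62.9 ± 10.4 RPKM. Mptx1 and Lyz2 stayed lowest, at 6.15 ± 2.66 and 2.49 ± 0.976 RPKM. Mmp7 had moved ahead of Ang4 and Mptx2, and Pla2g2a ahead of Clps. Each neighbouring pair kept the order in 4 of 4 libraries, but the ranges overlapped for Mmp7 and Ang4, Ang4 and Mptx2, and Mptx2 and Pla2g2a. The ratio of Lyz1 to Itln1 per length was 3.30 after PBS and 5.88 after TNF.

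The spread between mice differed among the granule genes. The biological coefficient of variation, the part of the spread that counting does not give, was 37.9% for Clps against 13.8% on the trend at its level, and 29.9% for Mptx2 against 15.4%. It was 34.2% for Mptx1 and 33.8% for Lyz2, both of low counts. Habp2 (15.3%), Mmp7 (16.7%) and Lyz1 (19.0%) were near the median of 16.2% over all genes tested.

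Profiles over the 7 libraries were compared by the root mean square distance of centred log2 CPM, as a description over libraries that share group, depth and scaling. Among the granule genes, Ang4 and Lyz1 were closest (0.156), followed by Mmp7 and Lyz1 (0.3004), Habp2 and Mptx2 (0.303) and Itln1 and Mptx2 (0.313), while Clps and Pla2g2a were farthest apart (2.09). Of 8423 candidate genes outside the set, those nearest to 4 of the 10 were alpha-defensins. They were Defa29 for Itln1 (0.0834) and for Mptx1 (0.302), Defa26 for Mptx2 (0.137) and Defa39 for Clps (0.214). The next nearest were Tmed6 for Itln1 (0.106), Spink4 for Mptx1 (0.348), Defa40 for Mptx2 (0.1397) and Defa-ps18 for Clps (0.325). Lyz1 was nearest to Serp1 (0.0705) and Stk3 (0.0783), and Ang4 to Fkbp3 (0.0829) and Rpl32 (0.0857). Mmp7 was nearest to Ginm1 (0.0465) and Cited4 (0.0581), Pla2g2a to Ccrl2 (0.0785) and Ndrg3 (0.113), and Habp2 to Maged1 (0.0829) and Ptprn2 (0.0882). Lyz2 was nearest to Plcd1 (0.376) and Spire1 (0.382). At the low counts of Lyz2 and Mptx1, sampling noise adds to the distance to any gene.

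Other secreted antimicrobial and mucosal proteins were counted from a list. Of 24 listed, 19 were tested, 11 were higher, 4 lower and 4 not called, with a median log2 fold change of 2.02 against 0.0017 over all genes tested. Lcn2, the siderophore-binding lipocalin 2, went from 0.366 ± 0.279 to 363 ± 46.9 CPM (9.87 ± 0.30, edgeR adjusted p = 1.03e-10). Nos2, the inducible nitric oxide synthase that the list holds as an antimicrobial enzyme, went from 5.07 ± 1.16 to 1035 ± 236 CPM (7.68 ± 0.26, edgeR adjusted p = 2.40e-10). Reg3a, a C-type lectin, went from 7 counts in all PBS libraries to 828 in all TNF libraries (6.49 ± 0.49, edgeR adjusted p = 1.05e-07).

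Genes of PC differentiation and granule maturation went both ways. Of 24 listed, 23 were tested, 9 were higher, 8 lower and 6 not called (median log2 fold change 0.10). Bhlha15, which encodes MIST1, a transcription factor of secretory cell maturation, was at 326, 335 and 300.5 CPM after PBS and at 13.3, 9.61, 10.8 and 12.8 CPM after TNF. This was a 27.6-fold fall (log2 -4.79 ± 0.13, edgeR adjusted p = 1.69e-11). Nod2, the sensor of muramyl dipeptide, rose from 1.96 ± 0.468 to 23.9 ± 2.28 CPM (3.61 ± 0.20) and Nupr1, a stress-induced nuclear protein, from 241 ± 66.9 to 1356 ± 239 CPM (2.49 ± 0.22). Among those chosen after their values were seen, the transcription factors Atoh1 (-1.77) and Gfi1 (-1.48) fell, while Spdef (1.44) and Xbp1 (0.85) rose.

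Markers of other cell types were counted as well. Of 8 tested enterocyte markers, 6 were lower and 1 higher, with Fabp2 at -3.03 and Slc5a1 at 0.46 (log2 fold change). Of 10 stem cell markers, 9 were lower, with Ascl2 at -4.65, Lgr5 at -2.32 and Sox4 at -2.09, and all 10 tuft cell markers were lower, with Ltc4s at -2.41, Trpm5 at -2.26 and Dclk1 at -2.14. Of 10 enteroendocrine markers, 4 were lower and 1 higher, with Tac1 at 4.61, Chgb at -2.44 and Chga, not called, at -1.44. Of 10 stromal and endothelial markers 2 were tested, 1 higher (Vwf, 1.89) and 1 lower, and none of 6 erythroid markers was tested. The leukocyte marker Ptprc, whose groups overlapped, was called lower (-0.95, edgeR adjusted p = 0.0270), a call lost in 4 of the 7 fits that left out 1 library (PBS replicate 2, or TNF replicate 1, 2 or 4). The summed level of enterocyte markers was 207 to 304 CPM after PBS and 61.6 to 78.3 CPM after TNF, that of stem cell markers 3896 to 5288 and 2122 to 2910.3 CPM, and that of tuft cell markers 1693 to 2808 and 351 to 883 CPM. No marker of these 3 lists was without counts. Their part in the falls of Clps, Habp2 and Mptx2 was not tested.

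Promoters from 250 bases before to 50 after the start were searched for 6 short motifs on both strands, for the 8 granule genes with an entry in the RefSeq table (none for Clps and Pla2g2a), which had 9 windows because Mmp7 has 2 overlapping ones from 2 annotated starts, and for all 32851 promoters of that table. CTTTGAT, the core of the site bound by TCF factors of the Wnt pathway, was found in 1 of the 8 genes, Mmp7, as 1 site that lies in both of its windows (position 4 from one start, -247 from the other), and in 3.73% of all promoters. TATAAA was found in Mmp7 and Mptx1 and in 13.6% of all, TTCNNNGAA, the STAT core, in Ang4 and in 8.3%, and ACGTG, the core of ER stress elements, in the downstream window of Mmp7 and in 19.6%. Shares are per window, so a gene with 2 windows had more sequence in which a match could occur. TTGCGCAA, a C/EBP site (0.183% of all), and a decamer of the NF-kB site (0.155%) were in none of the 9 windows. These are letter matches only.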

How the data were processed

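RNA was measured in sorted PCs of 3 PBS and 4 TNF mice. The authors deposited raw read counts per Ensembl gene, unnormalized. The submitters' processing notes name FastQC, Trimmomatic 0.39, STAR 2.7.10a and DESeq2, and the builds mm10 and mm39 without their roles; the counting program, annotation, strand and treatment of multiple matches were not given in the sources used here. Symbols and coordinates came from GENCODE M39 (GRCm39), which held 54749 of the identifiers.

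Counts were tested in R 4.3.3 with edgeR 4.0.16 (filterByExpr, TMM factors 0.842 to 1.22, robust quasi-likelihood test, TNF against PBS over all 7 libraries, two-sided, Benjamini-Hochberg over 14329 genes, called below 0.05), after the fit was tested on simulated data. CPM and RPKM used TMM-scaled library sizes and the union of annotated exons. Counts differed between libraries of a group by more than sampling noise (chi-square per degree of freedom at least 17.0). Depth was 15511455 to 19193721 counts per library, and intervals are from the fit.

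The granule genes and the other lists were chosen with earlier results of these data known. All granule genes were named, and of each other list the 3 tested genes with the largest absolute log2 fold change and a mean of at least 5 CPM, 1 of which is not reported here. For each granule gene the 2 genes with the nearest profile were named among those with at least 10 CPM. Sequence windows were compared with blastn 2.17.0 and exact matches of 75 bases, and promoters were aligned with Biopython 1.88. Alternatives were other scaling (DESeq2 1.42.0 size factors, total counts, TMM scaling without alpha-defensins and the granule genes), other filters, the DESeq2 test, the replicate number as a block and leaving out each library. Protein sequences were not analysed here.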

Additional observations from a re-analysis of the deposited data

How the results depend on the processing

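Under 14 alternatives, Pla2g2a, Clps and Habp2 kept their direction and their call, with log2 fold changes of 1.69 to 2.24, -2.60 to -2.01 and -1.42 to -1.10. Lyz1 (0.13 to 0.47) was never called. With scaling by total counts only, Itln1 was called (-0.69, edgeR adjusted p = 0.00264) and 0 exocrine pancreas markers were called. The median over all genes was then -0.16, with 3142 genes called higher and 4614 lower. In the main fit these counts were 4229 and 4314. Without the filter on low counts, Itln1 was called (-0.54, adjusted p = 0.00251) and Mptx2 was not (-1.08, adjusted p = 0.141). The cause was not tested. Over all alternatives the adjusted p ran from 0.00251 to 0.535 for Itln1 and from 0.00231 to 0.141 for Mptx2.

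With 1 library left out at a time, Itln1 ran from -0.74 to -0.22 and was called without PBS replicate 3. Mptx2 ran from -1.37 to -0.70 and was not called without PBS replicate 1. Of the granule genes not called, 3 changed sign: Mptx1 (-0.78 to 0.042, without PBS replicate 1), Lyz2 (-0.54 to 0.013, without TNF replicate 1) and Ang4 (-0.0099 to 0.34, without TNF replicate 4). The number of calls ran from 0 to 1 for exocrine pancreas markers (0 without PBS replicate 1 or TNF replicate 3), from 0 to 1 for leukocyte markers (0 without PBS replicate 2 or TNF replicate 1, 2 or 4) and from 3 to 7 for enteroendocrine markers (3 without PBS replicate 1 or 2). Granule genes called lower ran from 2 to 4.

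Same-numbered libraries share only a number: their deviations correlated at -0.30, -0.03 and -0.17. With the number as a replicate block, 7131 genes were called in place of 8543, Mmp7 was at 0.78 with an adjusted p of 0.0622 (range over all alternatives 1.31e-08 to 0.0622) and 1 granule gene was called higher. With 3 and 4 mice per group, the intervals of Lyz1, Ang4 and Itln1 span changes in both directions, and the low counts of Lyz2 and Mptx1 limit what can be seen of them.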
